A study of Drosophila melanogaster with 51 samples.

Results

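Cytochrome P450 genes encode haem enzymes that oxidise small molecules, taking electrons from a reductase and oxygen from the air. In insects the CYP6, CYP9 and CYP28 families, of the CYP3 clan, and the CYP4 family are known for clearing plant toxins and insecticides, while single members make hormones, pheromones and cuticle lipids. In larvae most are known from the midgut, the fat body and the Malpighian tubules. The genes described here are those of the deposited expression table of Drosophila melanogaster larvae whose gene symbol is Cyp followed by a digit. This rule found 33 of the 4698 named genes, among 6187 features with a value. Cyp1 and Cyp40 also match it but are cyclophilins, peptidyl-prolyl isomerases unrelated to P450 enzymes, and are given apart. The other 31 are P450 genes: 12 of CYP4, 11 of CYP6, 2 of CYP28 and 6 of other families. The RefSeq gene table names 83 genes by the P450 scheme, and those outside the 31 were not analysed here.

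The study compared RNA of larvae lacking or altered in a subunit of the COP9 signalosome, which strips the small protein Nedd8 off cullin ubiquitin ligases and has CSN5 as its catalytic subunit, with RNA of wild-type larvae on 2-colour arrays. The mutants were labelled csn4null, csn5null, csn51 and csn53, the first in subunit CSN4 and the others in CSN5, and the wild type was labelled w118 on all arrays but one, where it was named wild type only. Each was taken at 60, 72 and 96 h after egg deposition, on 51 arrays. There were 3 arrays of csn4null at 60 h and 4 at each later age, and 5 of csn5null at 60 h with 4 at each later age. For csn51 there were 4, 4 and 5 by age, and for csn53 5, 4 and 5. Each array held mutant RNA in one dye and age-matched wild-type RNA in the other. The labels speak of biological repeats with dye reversals and give neither zygosity, sex nor the number of larvae in an extract. P-values here measure only the spread between these arrays. All csn5null arrays at 60 h name a single wild-type sample, so its spread is missing from that group, and csn51 replicates 1 to 3 at 60 h name the same number.

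Values are given on the log2 scale as mutant relative to wild type, with the base of the logarithm taken as 2. The deposited direction is not stated, and it was taken from the targets: with every sign turned, CSN4 was lower in csn4null (fitted log2 ratios -2.39, -2.47 and -2.19 at 60, 72 and 96 h) and CSN5 in csn5null (-4.45, -2.94 and -2.03). This direction is likely but not proven, and every rise given here would be a fall if it were wrong. Neither csn51 nor csn53 passed the test for CSN5 at any age, with ratios of -0.53 to 0.25. At 60 h, however, every array of both was below 0, at -0.66 to -0.38 in csn51 and -0.63 to -0.41 in csn53. The test takes its spread from all groups together, so it does not show that CSN5 RNA was unchanged in these alleles. An array gave values for 5805 to 6593 entries. For the P450 genes, 20 of 31 had one on all 51 arrays and the sparsest, Cyp4d21, on 43. Each was measured by 1 cDNA clone, and the sources used here do not say whether a clone tells close relatives of the family apart. Larvae hold many tissues, and in such RNA fewer cells of a type and less RNA per cell cannot be told apart.

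In csn5null, 3 arrays stood apart. Replicate 3 at 72 h and replicate 3 at 96 h had CSN5 at -0.32 and -0.01, and their median correlations with their own groups were -0.00521 and 0.0721. Replicate 5 at 60 h had a low CSN5 but a median correlation of -0.012. All other csn5null arrays lay at 0.579 or above. Among those, replicate 4 at 96 h had CSN5 at only -1.16, against -3.84 and -3.11 on replicates 1 and 2. Its median correlation was 0.711, and it was kept. Counts of P450 genes in csn5null, and the single values that results turn on, are therefore given with and without the 3 arrays that stood apart.

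In the null mutants the share of P450 genes that changed was well above that of the whole table. A gene was called where its limma p-value, adjusted over all features by the Benjamini-Hochberg method, was under 0.05. In csn4null at 60 h 14 of 30 P450 genes tested were called, 9 higher and 5 lower, against 17.8% of all features, 9.77% higher and 8.08% lower. At 72 h 15 of 31 were called, 9 higher and 6 lower, against 25% of all features, 12.6% higher and 12.4% lower. At 96 h 20 of 31 were called, 10 each way, against 31.4%, 15.1% higher and 16.3% lower. The 60 h count rests on 3 arrays and was 7 without replicate 1, 6 without replicate 2 and 4 in a fit of those arrays alone. Such fits of 1 group also leave out the dye term. Part of the drop with 1 array left out comes from genes that then had a value on only 1 array and were not tested. These were Cyp4p2 without replicate 1, and Cyp6a8, Cyp6a13 and Cyp6a19 without replicate 2. Fitted on the array left, their ratios were -2.65, 3.17, -0.55 and 0.94.

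In csn5null at 60 h 12 of 31 P450 genes were called, 8 higher and 4 lower, against 7.94% of all features, 4.54% higher and 3.39% lower. At 72 h 14 were called, 9 higher and 5 lower, against 17.8%, 8.32% higher and 9.44% lower. At 96 h 15 were called, 11 higher and 4 lower, against 17.3%, 9.47% higher and 7.79% lower. Without the 3 arrays that stood apart, 7 were higher and 8 lower at 60 h, against 17.2% of all features called. At 72 h 9 were then higher and 6 lower, against 20.8%, and at 96 h 13 higher and 4 lower, against 27.3%. In fits of each csn5null group alone, with the 3 arrays kept, 10, 0 and 1 P450 genes were called, and the cause of this loss was not tested. Without replicate 4 the 96 h count was 9.

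The csn51 and csn53 arrays called a larger share of the whole table, and there the direction of the P450 genes differed by age. The share of P450 genes called was above that of all features in each of these groups too. It was 35.5% against 34.5% in csn51 at 72 h and 74.2% against 40.5% in csn53 at 96 h. In csn51 at 60 h 16 of 31 were called, 13 higher and 3 lower, against 46.9% of all features, 24.1% higher and 22.9% lower. At 72 h 11 of 31 were called, 1 higher and 10 lower, against 34.5%, 17.6% higher and 16.9% lower. At 96 h 21 of 29 were called, 7 higher and 14 lower, against 55.1%, 27% higher and 28.1% lower. The csn53 arrays had mostly rises at 60 h. There 21 of 31 were called, 19 higher and 2 lower, against 50.2%, 25.3% higher and 24.9% lower. At 72 h 13 were called, 6 higher and 7 lower, against 30%, 15.8% higher and 14.2% lower. At 96 h 23 were called, 11 higher and 12 lower, against 40.5%, 21% higher and 19.5% lower. The median size of the log2 ratio over the P450 genes was above that over all features in each of the 12 groups, at 0.86 over 0.21 in csn4null at 96 h and 0.30 over 0.21 in csn53 at 72 h.

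By family, CYP6 genes, 11 of the 31, made up 7 of the 9 rises in csn4null at 72 h and 9 of the 19 in csn53 at 60 h. Of all features 12.6% and 25.3% rose in these groups. In csn51 0 of 11 CYP6 genes rose at 72 h and 0 of 10 at 96 h, while 3 and 4 fell. There 17.6% and 27% of all features rose, and 16.9% and 28.1% fell. Of the 12 CYP4 genes 7 rose and 1 fell in csn53 at 60 h, and 4 rose and 5 fell at 96 h. Of all features 25.3% rose and 24.9% fell there at 60 h, and 21% and 19.5% at 96 h. Between 60 and 96 h, 4 of 29 P450 genes turned from a called rise to a called fall in csn51 and 5 of 31 in csn53, against 2.21% and 1.96% of all features. None did in either null, where 0.597% of all features did so in csn4null and 0.242% in csn5null. No P450 gene turned from a called fall to a called rise, against 4.33% of features in csn51 and 3.67% in csn53.

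**Figure D1:**
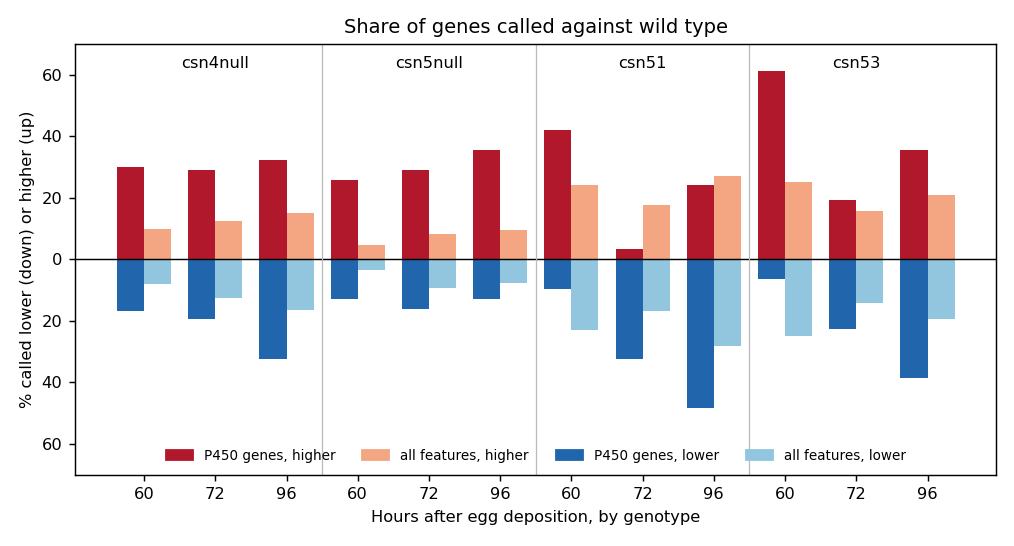
Percent of P450 genes and of all features called higher (bars up) or lower (bars down) than wild type, by genotype and hours after egg deposition. In csn53 at 60 h 61.3% of P450 genes and 25.3% of all features were higher, and in csn51 at 96 h 48.3% of P450 genes and 28.1% of all features were lower.

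Every one of the 31 P450 genes was called in at least 1 of the 12 groups, as were 89.6% of all features. Of the P450 genes 12 were only ever higher, 6 only ever lower, and 13 were higher in some groups and lower in others, against 30.4%, 30.6% and 28.7% of all features. Of the 195 calls of P450 genes against wild type, 47 were lost when some single array of the mutant group was left out. Cyp4e2 was called most often, higher in 11 groups. Cyp4ad1 and Cyp310a1 were each lower in 10, while Cyp4d21 was called in 1 of the 11 groups where it could be tested.

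**Figure D2:**
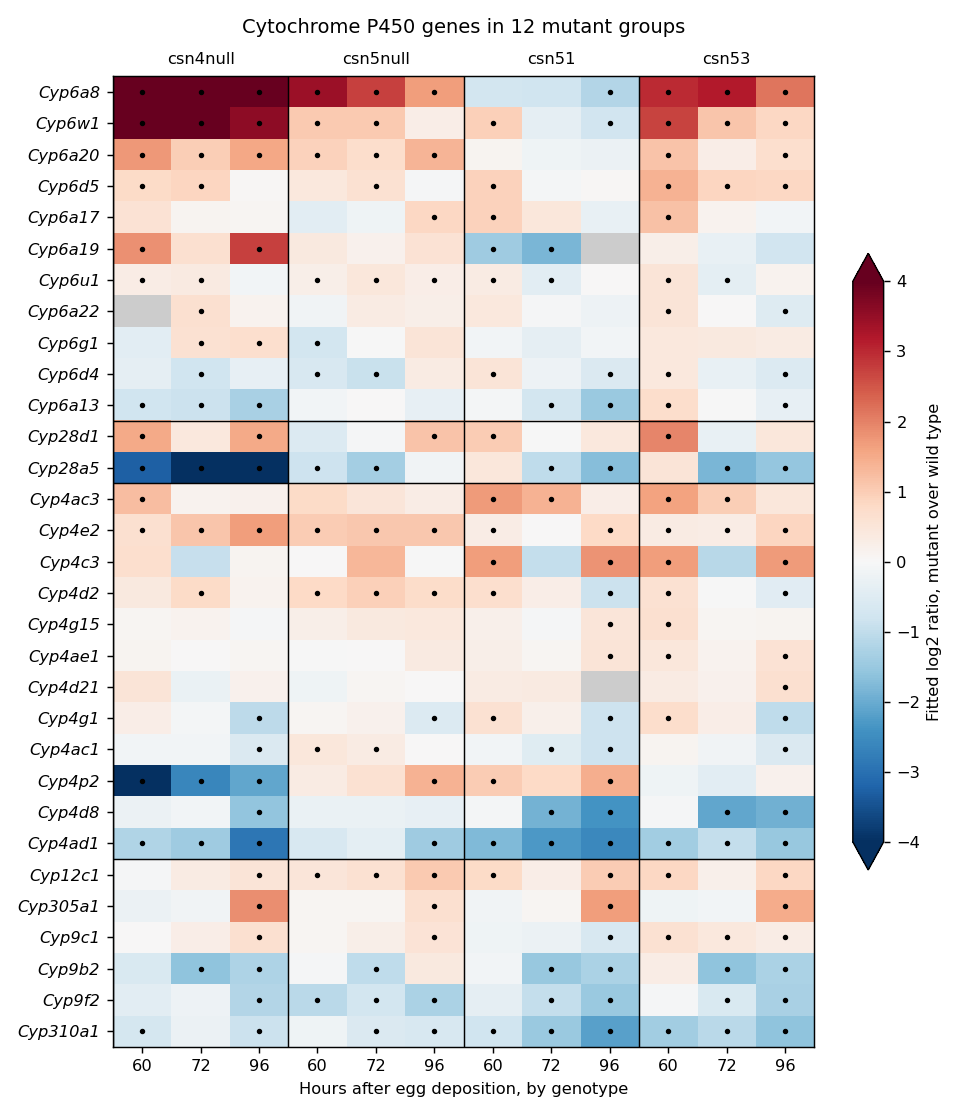
Fitted log2 ratios of mutant over wild type (colour, cut at 4 and -4) for the 31 P450 genes in 12 groups, ordered by family and then by mean ratio; dots mark calls at an adjusted p under 0.05 and grey marks groups not tested. Cyp6a8 reached 5.57 in csn4null at 72 h, and Cyp28a5 reached -4.77 in csn4null at 96 h.

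Of the CYP6 family, Cyp6a8 and Cyp6w1 showed the largest rises. Cyp6a8 is known as a gene that caffeine and barbiturates induce and that is over-expressed in DDT-resistant strains. In csn4null, Cyp6a8 had log2 ratios of 4.66 and 3.43 on the 2 arrays with a value at 60 h. At 72 h they were 5.60, 5.45, 5.63 and 5.61, and at 96 h 4.33, 3.75, 4.30 and 4.84. All of these lay far above 0, and the fitted ratio of 5.57 ± 0.40 at 72 h (SE, n = 4, limma adjusted p = 4.99e-14) is a 47.6-fold rise. The fitted ratios at 60 and 96 h were 4.04 ± 0.57 (adjusted p = 2.67e-06) and 4.30 ± 0.40 (adjusted p = 5.17e-11) by the same limma fit, and in a fit of the 60 h arrays alone the adjusted p was 0.0661.

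In csn5null, Cyp6a8 had log2 ratios of 3.14, 3.78, 3.23, 3.30 and 3.50 at 60 h. The 72 h arrays had 4.48, 3.23, -0.38 and 3.55, and the 96 h arrays had 2.24, 1.65, 0.28 and 2.52. The lowest value at 72 h and at 96 h came from the arrays that stood apart. The fitted ratios were 3.43 ± 0.36, 2.72 ± 0.40 and 1.67 ± 0.40, with limma adjusted p of 4.17e-09, 7.42e-06 and 0.00252. Without the 3 arrays they were 3.36, 3.72 and 2.10, all called. The 96 h call was lost without replicate 4 (1.30, limma adjusted p = 0.0642), and in fits of one group alone those at 72 and 96 h were lost (0.197 and 0.0552).

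The 2 other alleles parted over this gene. Cyp6a8 was below 0 on every csn51 array with a value, at -0.16, -0.83, -0.86 and -1.09 at 60 h, at -0.56, -0.80, -1.70 and -0.50 at 72 h, and at -0.34, -1.67 and -1.73 at 96 h. In csn53 it was at 2.48, 3.90, 2.30, 3.71 and 2.29 at 60 h, at 3.54, 3.28, 3.12 and 2.78 at 72 h, and at 3.12, 1.69, 0.89, 2.47 and 2.26 at 96 h. The ranges of the alleles did not overlap at any age. In csn51 the fall was called at 96 h only, at -1.17 ± 0.46 (limma adjusted p = 0.0305), where 3 of 5 arrays had a value. This call was lost without replicate 3 (limma adjusted p = 0.13) or replicate 5 (0.144), and after scaling the arrays to 1 spread (0.276). In csn53 the rise was called at each age, at 2.98 ± 0.36, 3.18 ± 0.40 and 2.13 ± 0.36.

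Cyp6w1 has been linked to DDT resistance in flies. In csn4null it had log2 ratios of 5.47, 4.35 and 3.75 at 60 h, of 4.29, 4.44, 4.91 and 4.84 at 72 h, and of 3.32, 3.63, 3.69 and 3.62 at 96 h. In csn5null the values were 0.84, 0.93, 0.83, 0.89 and 1.70 at 60 h, then 1.44, 0.89, 0.53 and 1.32 at 72 h and 0.38, 0.60, -0.43 and 0.57 at 96 h. Each csn4null array lay above each csn5null array. The fitted rises in csn4null were 4.49 ± 0.25, 4.62 ± 0.21 and 3.56 ± 0.21, or 22.4-fold, 24.6-fold and 11.8-fold, and the largest limma adjusted p was 9.75e-17. In csn5null it was 1.06 ± 0.19 at 60 h and 1.04 ± 0.21 at 72 h (limma adjusted p = 0.000132 and 0.000507), and at 96 h the ratio of 0.28 was not called. Leaving out the 3 arrays, the csn5null values at 60 and 72 h were 0.87 and 1.19, both called, and 0.49 at 96 h, not called.

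In csn51, Cyp6w1 was at 1.74, 1.48, 0.30 and 0.35 at 60 h, at -0.23, -0.24, -0.58 and -0.55 at 72 h, and at -0.51, -0.90, -0.77, -0.72 and -0.997 at 96 h. In csn53 it was at 2.68, 3.14, 2.68, 3.24 and 1.60 at 60 h, at 1.36, 1.20, 0.96 and 0.97 at 72 h, and at 1.08, 0.72, 0.35, 1.09 and 0.83 at 96 h. Cyp6w1 was thus above 0 at 60 h and below 0 later in csn51, while every csn53 array was above 0. The 2 higher csn51 values at 60 h were the arrays with the mutant in Cy3, and the 2 lower ones had it in Cy5. The csn51 fit gave 0.97 ± 0.21 at 60 h (limma adjusted p = 0.000235) and -0.76 ± 0.19 at 96 h (adjusted p = 0.000812), and the csn53 fit 2.69 ± 0.19, 1.12 ± 0.21 and 0.83 ± 0.19, all called.

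**Figure D3:**
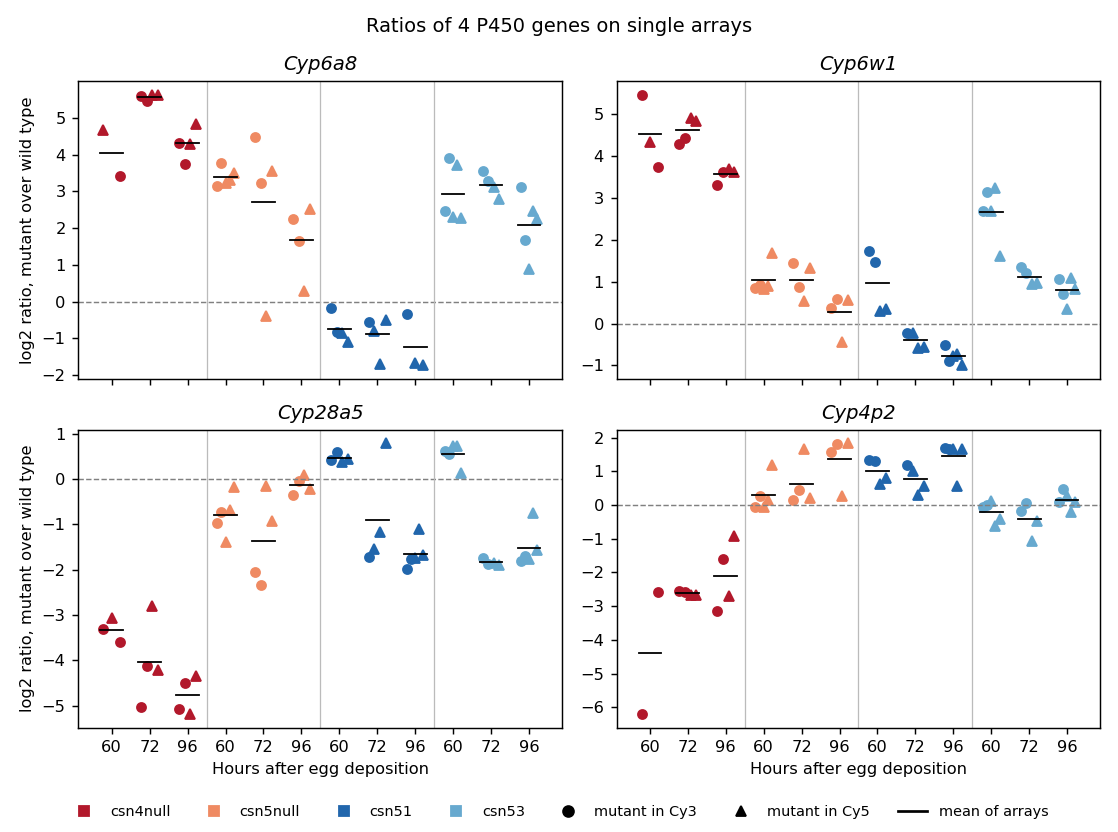
Log2 ratios of mutant over wild type on single arrays for Cyp6a8, Cyp6w1, Cyp28a5 and Cyp4p2, by genotype and hours after egg deposition, with the mutant in Cy3 (circles) or Cy5 (triangles) and the mean of the arrays (line); each panel has its own vertical scale. Cyp6a8 lay between 3.43 and 5.63 in csn4null and between -1.73 and -0.16 in csn51, and Cyp4p2 lay between -6.20 and -0.92 in csn4null and between -1.08 and 1.84 in the other mutants.

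Cyp6a13 ran the other way. In csn4null its log2 ratios were -1.06 and -0.56 at 60 h, then -1.13, -0.83, -0.69 and -0.79 at 72 h, and finally -1.48, -1.03, -1.46 and -1.19 at 96 h. In csn51 they were 0.15, -0.08, -0.20 and -0.12 at 60 h, then -0.59, -0.79, -1.01 and -0.55 at 72 h, and finally -0.995, -1.47, -2.43, -1.21 and -1.38 at 96 h. The fall in csn4null was called at each age (fitted -0.81 ± 0.22, -0.86 ± 0.16 and -1.29 ± 0.16), at 60 h on 2 arrays and not without replicate 2 (-0.55, limma adjusted p = 0.378), and that in csn51 at 72 h (-0.73 ± 0.16) and 96 h (-1.50 ± 0.14).

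In csn53, Cyp6a13 was at 0.66, 0.78, 0.74, 0.98 and 0.40 at 60 h, at 0.17, -0.10, -0.04 and -0.14 at 72 h, and at -0.13, -0.37, -0.70, -0.33 and -0.19 at 96 h. The 60 h rise of 0.71 ± 0.14 had a limma adjusted p of 4.81e-05. The 96 h fall of 0.34 had one of 0.0479, and it was lost when any 1 of the 5 arrays was left out (adjusted p of 0.0502 to 0.214). In csn5null it was not called at any age, with array values of -0.28 to 0.03 at 60 h, -0.66 to 1.00 at 72 h and -0.40 to -0.29 at 96 h. The value of 1.00 was on the 72 h array that stood apart, and without the 3 such arrays it was not called either.

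Among the other CYP6 genes, Cyp6a20, which affects male aggression in adult flies, was higher in both nulls at every age. Its fitted log2 ratios were 1.73, 0.98 and 1.55 in csn4null and 0.92, 0.72 and 1.35 in csn5null at 60, 72 and 96 h (0.82, 0.87 and 1.71 in csn5null without the 3 arrays). It was also higher in csn53 at 60 and 96 h (1.13 and 0.68), and in csn51 it was not called. Cyp6d5 was higher in 7 groups and lower in none, up to 1.39 ± 0.14 in csn53 at 60 h (limma adjusted p = 2.40e-10). Its csn5null rise at 72 h (0.61) was lost without the 3 arrays (0.40, adjusted p = 0.103).

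Cyp6a19 was higher in csn4null at 60 h (1.84, on 2 arrays, and 0.94 and not called without replicate 2) and 96 h (2.74) and lower in csn51 at 60 h (-1.43) and 72 h (-1.82). One csn4null array at 96 h, replicate 1, carried 5.93 against 1.40 to 2.20 on the others, and without it the 96 h ratio was 1.75 (limma adjusted p = 0.000111). The csn51 fall at 60 h was lost without replicate 3 (-0.91, limma adjusted p = 0.185), which held -2.77. Cyp6a17, which acts in temperature preference, was higher in csn51 and csn53 at 60 h (0.91 and 1.17) and in csn5null at 96 h (0.84, or 1.06 without the 3 arrays). In csn5null it was not called at 60 h (-0.42) or 72 h (-0.16), and without the 3 arrays it was lower at both (-0.72 and -0.56). The remaining CYP6 genes, Cyp6u1, Cyp6a22, Cyp6g1 and Cyp6d4, had fitted ratios between -0.89 and 0.66. Of these Cyp6d4 was lower in csn5null at 60 and 72 h (-0.65 and -0.89), and without the 3 arrays it was at -0.88 and -1.23 there and higher at 96 h (0.54). Cyp6g1, whose over-expression gives DDT resistance in field strains, was higher in csn4null at 72 h (0.60) and 96 h (0.66) and lower in csn5null at 60 h (-0.73), and each of these calls was lost without one or another single array. Without the 3 arrays its csn5null ratio was -1.07 at 60 h and 0.64 at 96 h, both called.

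The 2 CYP28 genes differed from each other. CYP28 genes are known from cactus-feeding Drosophila mettleri, where host alkaloids induce them. Cyp28a5 in csn4null had log2 ratios of -3.31, -3.07 and -3.60 at 60 h, of -5.03, -4.11, -2.80 and -4.20 at 72 h, and of -5.06, -4.49, -5.18 and -4.35 at 96 h. In csn5null it had -0.97, -0.72, -1.39, -0.67 and -0.17 at 60 h, then -2.06, -2.33, -0.15 and -0.93 at 72 h and -0.34, -0.05, 0.09 and -0.22 at 96 h. No csn5null array was as low as the highest csn4null array. The fitted falls in csn4null were -3.26 ± 0.30, -4.04 ± 0.26 and -4.77 ± 0.26, or 9.60-fold, 16.4-fold and 27.3-fold lower, with limma adjusted p of 8.24e-11, 4.56e-16 and 8.51e-18.

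In csn5null the Cyp28a5 fall was called at 60 h (-0.82 ± 0.23, limma adjusted p = 0.0174) and 72 h (-1.37 ± 0.26, adjusted p = 0.000206), and at 96 h the ratio was -0.13. Without the 3 arrays that stood apart it was -0.94 and -1.72 at 60 and 72 h, both called. The 60 h call was lost when replicate 1, 3 or 4 was left out (adjusted p of 0.0566 to 0.172).

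In csn51, Cyp28a5 had 0.42, 0.61, 0.37 and 0.45 at 60 h, then -1.72, -1.54, -1.17 and 0.79 at 72 h and -1.99, -1.76, -1.73, -1.11 and -1.67 at 96 h. In csn53 the values were 0.61, 0.56, 0.72, 0.74 and 0.14 at 60 h, then -1.73, -1.86, -1.85 and -1.89 at 72 h and -1.80, -1.70, -1.76, -0.74 and -1.56 at 96 h. Both alleles were thus above 0 at 60 h on all arrays, without passing the test, and below 0 later on all but csn51 replicate 4 at 72 h. The falls were called at 72 h (-1.005 ± 0.26 in csn51, or -1.53 without replicate 4, and -1.83 ± 0.26 in csn53) and at 96 h (-1.69 ± 0.23 and -1.55 ± 0.23).

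Cyp28d1, known for its part in nicotine resistance, was called higher in 5 groups and lower in none. It was higher at 60 h in csn4null (1.53 ± 0.37), csn51 (1.02 ± 0.32) and csn53 (1.94 ± 0.29), and at 96 h in csn4null (1.51 ± 0.32) and csn5null (1.14 ± 0.32). In csn5null at 60 h it had -1.03, -0.72, -1.11 and -0.81 on replicates 1 to 4 and 0.71 on replicate 5, the array that stood apart. There the fit over all arrays made no call, and without the 3 arrays it gave -0.92 (limma adjusted p = 0.00798). At 96 h the csn5null values were 1.48, 1.56, -0.46 and 1.96, and the fit without the 3 arrays gave 1.61. The csn4null and csn51 calls at 60 h were each lost without replicate 1 (limma adjusted p = 0.066 and 0.0937) or replicate 2 (0.161 and 0.0689), and the csn5null call at 96 h without replicate 1, 2 or 4 (0.0635, 0.0729 and 0.177).

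Of the CYP4 family, Cyp4e2 rose in all 4 mutants and Cyp4ad1 fell in all 4, although the genes are neighbours. On arm 2R no other protein-coding gene lies between them in the RefSeq gene order. Cyp4e2 had log2 ratios of 0.67, 0.74 and 0.57 in csn4null at 60 h, of 0.97, 1.16, 1.05 and 1.22 at 72 h, and of 1.59, 1.69, 1.79 and 1.68 at 96 h. In csn5null it had 1.26, 1.14, 1.14, 0.99 and 0.55 at 60 h, then 1.25, 1.14, 0.68 and 1.26 at 72 h, followed by 1.28, 1.24, 0.37 and 1.45 at 96 h. The lowest csn5null value at each age was on the array that stood apart.

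In csn51, Cyp4e2 was at 0.29, 0.49, 0.25 and 0.15 at 60 h, at 0.09, 0.18, -0.06 and -0.26 at 72 h, and at 0.69, 0.85, 0.71, 0.79 and 0.82 at 96 h. In csn53 it was at 0.21, 0.42, 0.36, 0.47 and 0.12 at 60 h, at 0.23, 0.41, 0.36 and 0.20 at 72 h, and at 0.98, 0.79, 0.60, 1.06 and 0.82 at 96 h. The fitted rise was called in every group but csn51 at 72 h (0.01). It was 0.65 ± 0.12, 1.10 ± 0.11 and 1.69 ± 0.11 in csn4null and 1.03, 1.08 and 1.08 in csn5null (1.13, 1.21 and 1.32 without the 3 arrays). In csn51 at 60 h and in csn53 at 60 and 72 h it was 0.29, 0.32 and 0.30, and these calls were lost after scaling the arrays to 1 spread (limma adjusted p of 0.0772 to 0.189). The csn51 call at 60 h was also lost without replicate 2 (0.113) or 3 (0.0508), and the csn53 call at 72 h without replicate 2 (0.0882), 3 (0.116) or 4 (0.0545).

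Cyp4ad1 had log2 ratios of -1.43, -2.09 and -0.13 in csn4null at 60 h, of -1.70, -1.61, -1.04 and -1.30 at 72 h, and of -3.34, -1.81, -3.54 and -2.90 at 96 h. In csn51 it had -2.03, -1.61, -1.50 and -1.97 at 60 h, -2.74, -2.88, -2.48 and -1.12 at 72 h, and -2.13, -2.40 and -3.19 on 3 arrays with a value at 96 h. In csn53 the values lay between -1.66 and -1.08 at 60 h, between -1.36 and -0.33 at 72 h and between -1.94 and -0.90 at 96 h. All of these arrays were below 0. The csn4null call at 60 h was lost without replicate 1 (limma adjusted p = 0.0793) or 2 (0.327), and the csn53 call at 72 h without replicate 1 (0.0588). In csn5null it was called at 96 h only (-1.43 ± 0.28, limma adjusted p = 0.000284), and without the 3 arrays at 96 h (-1.91) and also at 60 h (-0.84, adjusted p = 0.0131).

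**Figure D4:**
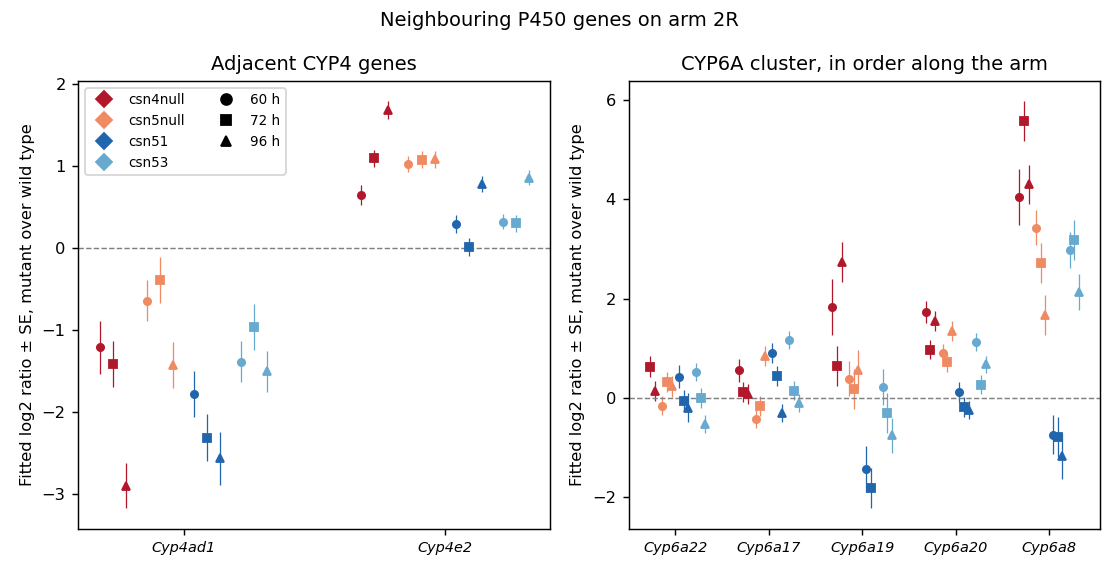
Fitted log2 ratios of mutant over wild type ± SE for P450 genes that lie close together on arm 2R, the adjacent Cyp4ad1 and Cyp4e2 (left) and 5 genes of the CYP6A cluster in their order along the arm (right), by genotype (colour) and hours after egg deposition (marker). Cyp4ad1 lay between -2.90 and -0.39 and Cyp4e2 between 0.01 and 1.69, and in the cluster Cyp6a8 spanned -1.17 to 5.57 while Cyp6a22 spanned -0.52 to 0.63.

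The CYP6A cluster on arm 2R gave a further view of neighbours. Cyp6a22 and Cyp6a17 are adjacent, and Cyp6a19, Cyp6a20 and Cyp6a8 follow, each with 1 further P450 gene before it. In csn4null at 96 h the fitted ratios along this order were 0.15, 0.08, 2.74, 1.55 and 4.30, the last 3 called. In csn51 at 72 h they were -0.06, 0.45, -1.82, -0.18 and -0.78, with Cyp6a19 alone called. On the X chromosome the adjacent Cyp4d2 and Cyp4ae1 also differed. Cyp4d2 was called higher in 6 groups and lower in 2 and Cyp4ae1 higher in 3, and at 96 h Cyp4d2 was lower and Cyp4ae1 higher in both csn51 (-0.85 and 0.52) and csn53 (-0.45 and 0.57). The csn51 arrays of Cyp4ae1 at 96 h ran from -0.61 to 1.28, and its call was lost without replicate 1 (limma adjusted p = 0.0667) or 2 (0.107).

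Cyp4p2 was called lower at each age in csn4null and at no age in the other mutants. In csn4null it had log2 ratios of -6.20 and -2.57 on the 2 arrays with a value at 60 h, of -2.56, -2.59, -2.66 and -2.68 at 72 h, and of -3.14, -1.61, -2.70 and -0.92 at 96 h. In csn5null it had -0.05, 0.27, -0.04, 0.16 and 1.19 at 60 h, then 0.16, 0.45, 1.66 and 0.22 at 72 h, followed by 1.59, 1.82, 0.26 and 1.84 at 96 h. The arrays of the 2 nulls did not overlap at any age. The fitted falls in csn4null were -4.47 ± 0.47, -2.62 ± 0.32 and -2.09 ± 0.32, all called, although in a fit of its 3 arrays alone the 60 h fall had a limma adjusted p of 0.109. Replicate 1 held the -6.20, and with only the other 60 h array kept the fitted ratio there was -2.65 (limma adjusted p = 0.000812), its spread being taken from the other groups. In csn5null the gene was higher at 96 h (1.38 ± 0.32, limma adjusted p = 0.00202, or 1.71 without the 3 arrays).

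In csn51, Cyp4p2 was higher at 60 h, on arrays of 1.34, 1.32, 0.62 and 0.79 (1.02 ± 0.32, not called without replicate 1), and at 96 h, on arrays of 1.68, 1.66, 1.68, 0.56 and 1.66 (1.46 ± 0.29). In csn53 it was not called, with arrays between -1.08 and 0.48 over the 3 ages.

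Other CYP4 genes changed with age. Cyp4d8 was lower in csn4null at 96 h (-1.57 ± 0.32), and in csn51 and csn53 at 72 h (-1.90 and -2.06) and 96 h (-2.38 and -1.93), and in csn5null it was not called at any age. At 60 h a csn5null array that stood apart had Cyp4d8 at 2.43 against -1.12 to -0.74 on the other 4, and without the 3 arrays it was called there (-0.94, limma adjusted p = 0.00112). Cyp4g1, the oenocyte enzyme that makes cuticular hydrocarbons, was higher in csn51 and csn53 at 60 h (0.60 and 0.70) and lower in all 4 mutants at 96 h, at -1.03 in csn4null, -0.54 in csn5null (-0.67 without the 3 arrays), -0.84 in csn51 and -1.01 in csn53.

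Cyp4ac3 was higher in csn4null at 60 h (1.24, not called without replicate 1 or 2) and in csn51 and csn53 at 60 h (1.69 and 1.61) and 72 h (1.38 and 0.97, the second not called without csn53 replicate 1 or 2), while Cyp4ac1, separated from it by 1 further P450 gene on arm 2L, was lower in csn51 at 72 h (-0.49) and in csn4null, csn51 and csn53 at 96 h (-0.58, -0.82 and -0.57). Cyp4c3 was higher in csn51 and csn53 at 60 h (1.68 and 1.67) and 96 h (1.80 and 1.72) and was not called at 72 h (-0.94 and -1.11). In csn5null at 72 h its arrays had 2.36, 2.06, -2.04 and 2.89, the low one being the array that stood apart, and the fit of 1.32 was not called, against a called 2.40 without the 3 arrays. Cyp4g15, known from the larval nervous system, and Cyp4d21, which acts in male courtship, had fitted ratios of at most 0.65 in any group. The 0.65 was that of Cyp4g15 in csn53 at 60 h, where replicate 4 held 2.79 and the others 0.05 to 0.14, and it was 0.11 and not called without that array.

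Among the 6 genes of other families, some were called in 1 direction only, and 1, Cyp305a1, was called only at 96 h. Cyp310a1 was lower in 10 groups and higher in none, from -0.57 in csn5null at 72 h (-0.56 without the 3 arrays, limma adjusted p = 0.0492) to -2.17 ± 0.22 in csn51 at 96 h (limma adjusted p = 7.92e-11). Cyp9f2 was lower in 8 groups and higher in none, with fitted ratios at 96 h of -1.18 in csn4null, -1.27 in csn5null (-1.49 without the 3 arrays), -1.50 in csn51 and -1.29 in csn53. Cyp9b2 was lower in 7 groups, among them csn5null at 72 h (-1.01, or -1.28 without the 3 arrays) and csn4null, csn51 and csn53 at 72 h (-1.62, -1.50 and -1.60) and 96 h (-1.24, -1.26 and -1.27). Cyp12c1, of the mitochondrial P450 clan, was higher in 8 groups, up to 1.04 in csn5null at 96 h (1.30 without the 3 arrays), and its csn5null rise at 60 h (0.47) was lost without them (0.23, limma adjusted p = 0.0526).

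Cyp305a1 was called in all 4 mutants at 96 h and in none at 60 or 72 h. In csn4null it had log2 ratios of 2.07, 1.79, 2.30 and 1.33 at 96 h, where its 60 and 72 h arrays had -0.45 to 0.17. In csn51 the 96 h arrays had 1.80, 2.12, 1.90, 1.00 and 1.54, and in csn53 they had 1.59, 1.58, 1.82, 0.71 and 1.72. The csn5null arrays spread more widely, with -0.74, 1.67, 0.17 and 1.40 at 96 h. The fitted rises at 96 h were 1.87 ± 0.22, 0.63 ± 0.22, 1.67 ± 0.19 and 1.48 ± 0.19 in csn4null, csn5null, csn51 and csn53, with a limma adjusted p of 0.0379 in csn5null and at most 3.40e-08 in the others, and the csn5null value was 0.79 without the 3 arrays. The csn5null call was lost without replicate 2 (0.27, limma adjusted p = 0.583) or 4 (0.36, adjusted p = 0.414), and the ratio was 1.09 without replicate 1.

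The nulls of the 2 subunits were then set against each other. Between csn4null and csn5null, 6 of 30 P450 genes differed at 60 h, 3 each way, against 9.92% of all features, with 5.73% above and 4.19% below csn5null. At 72 h 7 of 31 differed, 2 higher and 5 lower, against 10.6%, 6.08% higher and 4.51% lower. At 96 h 11 of 31 did, 5 higher and 6 lower, against 5.1%, 1.85% higher and 3.26% lower. Without the 3 csn5null arrays 6 were higher and 6 lower at 60 h, against 28.5% of all features called. At 72 h 4 were then higher and 4 lower, against 10.5%, and at 96 h 5 higher and 11 lower, against 9.2%. Cyp6w1, Cyp28a5, Cyp4p2 and Cyp4ac1 differed the same way at all 3 ages, out of 63 such features in the whole table. Cyp6w1 was higher in csn4null by 3.43 ± 0.31, 3.58 ± 0.30 and 3.28 ± 0.30 on the log2 scale (largest limma adjusted p = 1.12e-10). Cyp4p2 was lower in csn4null by -4.79 ± 0.56, -3.24 ± 0.46 and -3.47 ± 0.46, and Cyp28a5 by -2.44 ± 0.38, -2.67 ± 0.37 and -4.64 ± 0.37. The Cyp4p2 difference at 60 h rests on 2 csn4null arrays, and without replicate 1 it was -2.98 (limma adjusted p = 0.00072). The Cyp4ac1 difference was -0.57, -0.44 and -0.59. Its 72 h call was lost without csn4null replicate 1 or 4 or csn5null replicate 1, 2 or 4 (limma adjusted p of 0.0522 to 0.0886). Without the 3 arrays Cyp6w1 differed by 3.62, 3.43 and 3.08, Cyp4p2 by -4.58, -2.86 and -3.81, Cyp28a5 by -2.34, -2.31 and -4.62 and Cyp4ac1 by -0.55, -0.55 and -0.58, each called.

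All 4 of these genes lie on chromosome 2, as do the 3 P450 genes called at every age between csn51 and csn53, the 2 called at every age between csn5null and the mean of those alleles, 20 of the 31 P450 genes and CSN4, which is on arm 2R, while CSN5 is on arm 3R. The labels do not say whether the mutant chromosomes share the background of the wild type. Cyp6a8 was higher in csn4null than in csn5null at 72 h (2.85 ± 0.57, limma adjusted p = 0.000516) and 96 h (2.63 ± 0.57, adjusted p = 0.00259), and the differences were 1.85 and 2.20 without the 3 arrays, both called. The P450 calls between the nulls that were lost without the 3 arrays were those of Cyp6a13 at 72 h (-0.88, against -0.54) and Cyp4ad1 at 96 h (-1.47, against -0.99).

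The alleles csn51 and csn53 gave few differences in the whole table, and P450 genes were among them. At 60 h 3 of 31 P450 genes differed, all lower in csn51, against 12 of 6185 features, or 0.194%, with 0.0808% higher and 0.113% lower. At 72 h 5 of 31 differed, all lower, against 3.64%, 1.34% higher and 2.3% lower. At 96 h 6 of 29 did, again all lower, against 4.08%, 1.97% higher and 2.11% lower. Cyp6a8, Cyp6w1 and Cyp9c1 differed at all 3 ages, among 9 features of the whole table that did so in one direction. The differences, csn51 minus csn53, were -3.71 ± 0.54, -3.97 ± 0.57 and -3.30 ± 0.59 for Cyp6a8, with limma adjusted p of 4.92e-05, 2.35e-05 and 0.0003. For Cyp6w1 they were -1.72 ± 0.29, -1.47 ± 0.30 and -1.59 ± 0.27, and for Cyp9c1 -0.78 ± 0.18, -0.66 ± 0.19 and -0.94 ± 0.17.

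Cyp9c1 had log2 ratios of -0.18, 0.00, -0.24 and -0.21 in csn51 at 60 h, against 0.76, 0.83, 0.49, 0.73 and 0.30 in csn53. At 96 h they were -0.90, -0.47, -0.39, -0.93 and -0.53 in csn51, against 0.41, 0.52, 0.47, -0.16 and 0.23 in csn53. The alleles did not overlap at either age. The other P450 genes that differed were Cyp6d5 (-0.93 at 72 h and -0.78 at 96 h), Cyp4ad1 at 72 h (-1.35), and Cyp6a13 (-1.15) and Cyp6a20 (-0.92) at 96 h. The Cyp4ad1 call was lost without csn51 replicate 1, 2 or 3 or csn53 replicate 2, 3 or 4 (limma adjusted p of 0.0611 to 0.174). The Cyp6d5 calls were lost without csn53 replicate 4 (0.0808 at 72 h and 0.1 at 96 h), and at 96 h also without csn51 replicate 3 (0.0566). The Cyp6a20 call was lost without csn51 replicate 2 (0.0652) or csn53 replicate 4 (0.0512) or 5 (0.0841). The Cyp9c1 call at 60 h was lost without one or another of 7 single arrays (limma adjusted p of 0.0605 to 0.198) and that at 72 h without one or another of 4 (0.0862 to 0.157). At 72 h the count of 5 was 2 without csn53 replicate 4 and 3 without csn51 replicate 3.

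**Figure D5:**
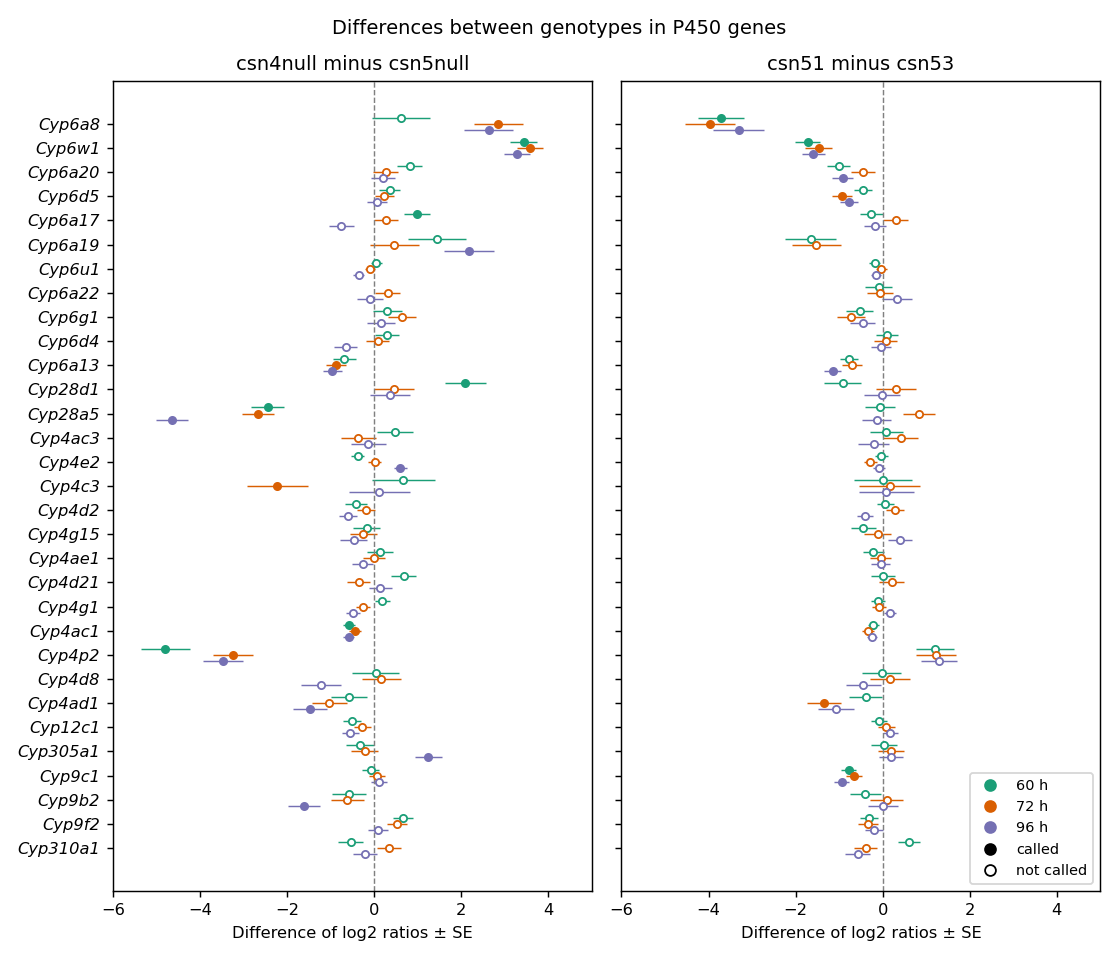
Differences of log2 ratios ± SE between mutants for the 31 P450 genes, csn4null minus csn5null (left) and csn51 minus csn53 (right), at 60, 72 and 96 h after egg deposition, with filled points for calls at an adjusted p under 0.05. For csn4null minus csn5null, Cyp28a5 lay at -4.64 at 96 h and Cyp6w1 at 3.28 to 3.58, and all filled points on the right lie below 0.

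Set against the mean of csn51 and csn53, csn5null had lower ratios at 60 h and higher ones later. At 60 h 5 P450 genes were higher and 13 lower of 31, against 43.7% of all features called, 21.4% higher and 22.4% lower. At 72 h 12 were higher and 1 lower, against 31.5%, 15.2% higher and 16.3% lower. At 96 h 12 of 29 were higher and 2 lower, against 30.5%, 16.1% higher and 14.5% lower. Without the 3 csn5null arrays 5 were higher and 15 lower at 60 h, against 53.2% of all features called. The later counts were then 11 higher and 2 lower, against 33%, and 16 higher and 2 lower, against 34.7%. At 60 h Cyp28d1 was at -2.04 ± 0.36 (limma adjusted p = 1.36e-05) and Cyp6a17 at -1.46 ± 0.22, and Cyp6a8 was at 2.31 ± 0.45. For Cyp6a8 the mean describes neither allele, since every csn51 array was below 0 and every csn53 array above 0. The csn5null arrays lay within the range of csn53 there. At 96 h Cyp4d2 differed by 1.38 ± 0.18, Cyp4d8 by 1.81 ± 0.38 and Cyp9b2 by 1.64 ± 0.31. Cyp4c3 changed sign, at -1.67 ± 0.55, 2.34 ± 0.61 and -1.76 ± 0.59 at 60, 72 and 96 h. Without those 3 arrays these values were -2.40 for Cyp28d1, -1.76 for Cyp6a17, 2.25 for Cyp6a8, 1.60 for Cyp4d2, 1.67 for Cyp4d8, 1.88 for Cyp9b2, and -1.94, 3.44 and -2.08 for Cyp4c3, all called. Cyp310a1 and Cyp4ac1 were higher in csn5null at all 3 ages, and 352 features of the whole table were called in one direction at all 3. With 29 P450 genes and 5931 features tested at 96 h, the share of P450 genes was close to that of all features. The 72 h count of 13 was 8 without csn5null replicate 1 or replicate 4.

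Between 60 and 96 h most called P450 genes fell in csn51 and csn53. Of 29 tested in csn51, 16 were lower at 96 h than at 60 h and 2 higher, against 37.8% of all features called, 17.2% higher and 20.7% lower. In csn53 16 of 31 were lower and 2 higher, against 31.4% called, 15.4% higher and 15.9% lower. Cyp305a1 and Cyp4e2 were the higher genes in both. In csn51 Cyp4d8 fell by 2.29, Cyp28a5 by 2.15, Cyp6w1 by 1.73 and Cyp4d2 by 1.52 on the log2 scale. In csn53 Cyp28a5 dropped by 2.07, Cyp4d8 by 1.86, Cyp6w1 by 1.86 and Cyp4g1 by 1.71. These are changes of the ratio to wild type of the same age, so a change in either RNA moves them.

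In the nulls the age differences were fewer and ran both ways. In csn4null 5 of 30 were higher at 96 h than at 60 h and 7 lower, against 12.4% of all features called, 5.74% higher and 6.7% lower. In csn5null 5 of 31 were higher and 3 lower, against 7.37%, 3.7% higher and 3.67% lower. Cyp4p2 (2.38 ± 0.57) and Cyp305a1 (2.11 ± 0.33) were higher at 96 h in csn4null, the first on 2 arrays at 60 h and not without replicate 1 there (0.56, limma adjusted p = 0.643), and Cyp4ad1 (-1.69 ± 0.43) and Cyp28a5 (-1.51 ± 0.40) lower. In csn5null Cyp28d1 (1.70 ± 0.43) and Cyp6a17 (1.26 ± 0.27) were higher at 96 h and Cyp6a8 (-1.76 ± 0.54) lower, and without the 3 arrays these were 2.52, 1.79 and -1.26, all called. With all other arrays kept, the Cyp6a8 call was lost without replicate 2, 3 or 4 at 60 h or replicate 1, 2 or 3 at 96 h (limma adjusted p of 0.059 to 0.122). The Cyp28d1 call was lost without replicate 4 at 96 h (1.35, limma adjusted p = 0.0916). The Cyp4ad1 call was lost without csn4null replicate 3 at 60 h (-1.14, limma adjusted p = 0.105). The csn4null count of 12 was 5 without replicate 1 at 60 h and 7 without replicate 2 at 60 h or replicate 2 or 4 at 96 h. The csn5null count of 8 was 14 without the 3 arrays, 9 higher and 5 lower, against 24.5% of all features called, and it was 5 without replicate 3 at 60 h or replicate 2 at 96 h, and 4 without replicate 1 or 4 at 96 h.

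Genes listed as working with P450 enzymes or controlling them were looked at by lists. Of 7 genes listed as electron donors and redox partners only the cytochrome b5 related gene Cyt-b5-r was measured, and whether it serves P450 enzymes was not tested. It was higher in csn4null at each age (0.99, 0.83 and 1.27), in csn5null at 72 and 96 h (0.51 and 1.00, or 0.67 and 1.21 without the 3 arrays) and in csn53 at 60 h (0.87). The 6 P450 genes of ecdysteroid synthesis that carry names of their own were not analysed here. Of 22 regulators of detoxification genes 14 were measured. At 60 h 7 were higher in csn51 and 8 in csn53 and none was lower, where 46.9% and 50.2% of all features were called. At 72 h 3 were higher and 2 lower in each allele, against 34.5% and 30% called. The 96 h counts were 7 higher and 3 lower in csn51 and 6 and 3 in csn53, against 55.1% and 40.5%. In csn4null 2, 3 and 4 were higher and 0, 2 and 2 lower at the 3 ages, against 17.8%, 25% and 31.4% called. The csn5null counts were 1, 2 and 4 higher and 0, 1 and 1 lower, against 7.94%, 17.8% and 17.3%, and without the 3 arrays 1, 3 and 6 higher and 2, 1 and 2 lower. The median log2 ratio of the list lay between -0.02 and 0.37 over the 12 groups, where that of all features lay between -0.02 and 0.01. Keap1, which holds the stress factor Cap-n-collar back, was higher in 9 groups, by 1.22 in csn4null and 1.13 in csn5null (1.41 without the 3 arrays) at 96 h, and cnc, the gene of that factor, was higher in csn4null (0.42), csn5null (0.27) and csn51 (0.30) at 96 h. crc, the ATF4 gene of Drosophila, was higher in all csn4null, csn51 and csn53 groups (0.55 to 0.87) and in csn5null at 96 h (0.49). EcR, the ecdysone receptor gene, was higher at 60 h in csn51 and csn53 (0.91 and 0.93) and lower at 96 h in all 4 mutants (-0.75 to -0.99). ftz-f1, a nuclear receptor gene, was higher at 60 and 96 h in csn51 (2.00 and 1.35) and csn53 (2.20 and 1.42) and lower at 72 h (-1.0003 in csn51 and -1.07 in csn53). The csn5null ratios at 96 h without the 3 arrays were 0.37 for cnc, 0.66 for crc and -0.74 for EcR, all called, and EcR was also lower there at 60 h (-0.56). Without those arrays ftz-f1 was higher in csn5null at 72 h (1.60, limma adjusted p = 0.0016), where it was lower in csn51 and csn53. It was not called in csn5null at 60 h (-0.29) or 96 h (0.18).

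Some markers of tissues that hold P450 enzymes were called in the same groups, and their part in the P450 results was not tested. For the 96 h counts below, 31.4% of all features were called in csn4null, 17.3% in csn5null, 55.1% in csn51 and 40.5% in csn53. Of 12 fat body genes 4 were measured, and 3 of these were lower at 96 h in csn4null, csn51 and csn53 and 2 in csn5null, while 1, the lipase gene bmm, was higher in csn51 (0.86) and csn53 (0.63), with list medians of -0.73 in csn4null, -0.83 in csn5null, -1.35 in csn51 and -0.97 in csn53. Fbp2, a fat body protein gene, was at -7.61 in csn4null, -5.49 in csn5null, -8.10 in csn51 and -8.50 in csn53 at 96 h. Fbp2, without the 3 arrays, was at -7.26 in csn5null at 96 h and lower at 72 h as well (-1.55), and the list median there at 96 h was -0.92. Of 27 midgut digestive enzyme genes 5 were measured, with 3 lower and 1 higher in each null and 4 lower in csn51 and csn53 at 96 h, and list medians of -0.43 in csn4null, -0.60 in csn5null, -1.25 in csn51 and -0.53 in csn53. Of 12 Malpighian tubule genes 3 were measured, with 2, 1, 1 and 3 higher at 96 h in csn4null, csn5null, csn51 and csn53 and none lower. Of 8 oenocyte genes 4 were measured, Cyp4g1 among them, with medians between -0.12 and 0.52. The ratios give no levels, so whether a marker was absent from a sample was not measured.

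The 2 cyclophilin genes that the symbol rule also takes in were each called in one direction at most. Cyp1 was lower in 8 groups and higher in none, from -0.27 in csn4null at 60 h to -0.71 ± 0.08 in csn51 at 60 h (limma adjusted p = 8.20e-09). Cyp40 was called in 1 group, csn51 at 96 h, at 2.19 ± 0.65 (limma adjusted p = 0.00421). Its arrays there were -0.10, 0.30, 0.09, 10.43 and 0.36, so that call rests on replicate 4.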

How the data were processed

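Larval RNA of 4 COP9 signalosome mutants and of age-matched wild type was hybridised to 51 arrays of 2 colours, in 12 groups by genotype and age. Per the labels' protocols, total RNA was extracted with TRIZOL and labelled through amino-allyl coupling, with dye reversals. The authors deposited 1 log ratio per entry and array, taken here as log2; base, direction and normalisation are not given in the sources used here. Array medians lay between -0.03 and 0.02, so the values were centred before deposit, and array SDs between 0.347 and 0.948. Signal over background is unknown; precision is set by how many arrays a group has.

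Signs were reversed throughout so that a positive value is higher in the mutant, because the deleted genes CSN4 and CSN5 read above 0 in the deposited columns of their nulls. Of 6621 entries, 32 were controls and 28 had no value. GEO's platform annotation gave 5072 entries 1 symbol, 176 several and 1373 none, and 4993 of the first matched the RefSeq gene table. Entries of 1 gene were averaged, giving 6187 features; 1 entry that lists 2 Cyp symbols was not named. RefSeq tables gave chromosome arms and gene order; no sequence was printed.

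One linear model (limma 3.58.1 in R 4.3.3, lmFit and eBayes) was fitted over the 51 arrays with 12 group terms and 1 dye term. Features needed 2 arrays with a value in each group compared. P-values were adjusted by the Benjamini-Hochberg method over all features, with a threshold of 0.05. An SE is that of the fitted value. Cyp6a22 in csn4null at 60 h and Cyp6a19 and Cyp4d21 in csn51 at 96 h were not tested. The scripts were tested on simulated data. Tables were handled with Python 3.11.15 and pandas 2.3.3.

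Genes named were the 5 markers Cyp6a8, Cyp6w1, Cyp28a5, Cyp4e2 and Cyp6a13, up to 4 genes per group with the largest called ratio and 1 sign on all arrays, and 3 per difference; others named in the text were chosen after their values were seen. The members and lists were chosen with earlier results of these data known. Alternatives were fits without the dye term, of the compared arrays alone, with arrays centred or scaled, with array weights, with complete values, with 1 entry per gene, with the replicate number as a block, without the doubted csn5null arrays and without each array in turn. Fits of csn4null at 60 h with 1 array enough for a gene, and the lists without the doubted arrays, were chosen after seeing the data. Equal replicate numbers did not pair arrays: 0 of 18 pairs of groups had every correlation of deviations over 0.1 (71 array pairs, -0.563 to 0.615).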

Additional observations from a re-analysis of the deposited data

Results flagged for a closer look

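In 64 sets of single-array values of named genes, 4 arrays lay far from the rest of their set, and chance alone marks about 1 set in 20. Cyp6a8 was at 5.45 on csn4null replicate 2 at 72 h, below 3 arrays that lay within 5.60 to 5.63. Cyp6w1 was at 1.70 on csn5null replicate 5 at 60 h, against 0.83 to 0.93 on the others, and Cyp4p2 at 0.26 on csn5null replicate 3 at 96 h, against 1.59 to 1.84; both arrays stood apart over the whole table as well. Cyp28a5 was at -0.74 on csn53 replicate 4 at 96 h, against -1.80 to -1.56.

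Differences between mutants that passed the limma test of the difference itself came in 39 named cases, given here on the log2 scale. Between csn4null and csn5null, Cyp4p2 differed by -4.79 (-2.98 without csn4null replicate 1), -3.24 and -3.47 at 60, 72 and 96 h and Cyp6w1 by 3.43, 3.58 and 3.28. Cyp28a5 differed by -2.44 at 60 h and -4.64 at 96 h, and Cyp6a8 by 2.85 at 72 h. Between csn51 and csn53, Cyp6a8 differed by -3.71, -3.97 and -3.30 and Cyp6w1 by -1.72, -1.47 and -1.59 at the 3 ages. Smaller differences were those of Cyp9c1 at 60 h (-0.78), Cyp4ad1 at 72 h (-1.35) and Cyp6a13 at 96 h (-1.15). The Cyp9c1 and Cyp4ad1 calls were each lost without one or another single array.

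Relative to the mean of csn51 and csn53, csn5null differed by 2.31 at 60 h and 1.52 at 72 h in Cyp6a8, by -2.04 at 60 h in Cyp28d1, and by -1.67, 2.34 and -1.76 at the 3 ages in Cyp4c3. For Cyp6a8 this mean describes neither allele, since every csn51 array was below 0 and every csn53 array above 0. The csn5null arrays overlapped those of csn53 at both ages. The 72 h value for Cyp6a8 includes the csn5null array that stood apart, at -0.38. Cyp4d8 differed by 1.71 at 72 h and 1.81 at 96 h, and Cyp9b2 by 1.64 at 96 h.

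Between 96 and 60 h, csn4null differed by 2.38 in Cyp4p2, 2.11 in Cyp305a1 and -1.69 in Cyp4ad1. The Cyp4p2 value rests on 2 arrays at 60 h, and without replicate 1 there (-6.20) it was 0.56 and not called (limma adjusted p = 0.643). The Cyp4ad1 call was lost without replicate 3 at 60 h (-1.14). In csn5null the differences were -1.76 in Cyp6a8, 1.70 in Cyp28d1 and 1.26 in Cyp6a17. The Cyp6a8 call was lost without one or another single array (limma adjusted p of 0.059 to 0.122), and the Cyp28d1 call without replicate 4 at 96 h (0.0916). In csn51 they were -2.29 in Cyp4d8, -2.15 in Cyp28a5 and 1.80 in Cyp305a1, and in csn53 -2.07 in Cyp28a5, -1.86 in Cyp4d8 and -1.86 in Cyp6w1.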

How the results depend on the processing

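Of 250 counts of called P450 genes under other settings, 230 stayed within 1.5 times the count reported. With a fit of the compared arrays alone the counts were 4 in csn4null at 60 h, 0 in csn5null at 72 h (where limma called 1 feature of the whole table), 1 in csn5null at 96 h, 4 between csn4null and csn5null at 72 h, 1 and 3 between csn51 and csn53 at 60 and 72 h, and 2 between 96 and 60 h in csn5null. With array weights they were 20 in csn5null at 60 h, 17 in csn51 at 72 h, 20 between the nulls at 60 h, 7 and 10 between csn51 and csn53 at 60 and 72 h, and 19 and 14 between 96 and 60 h in csn4null and csn5null. Scaling gave 10 between the nulls at 60 h. Without 2 and without 3 of the doubted csn5null arrays that count was 11 and 12, the count between csn51 and csn53 at 60 h was 5 in each case, and without 3 the count between 96 and 60 h in csn5null was 14. Leaving out 1 array at a time moved 15 of 177 counts, with ranges of 6 to 11 in csn4null at 60 h, 9 to 16 in csn5null at 96 h, 2 to 4 between csn51 and csn53 at 72 h, 8 to 13 between csn5null and the mean of csn51 and csn53 at 72 h, 5 to 9 between 96 and 60 h in csn4null and 4 to 11 in csn5null. Apart from fits with fewer arrays, the cause of these shifts was not tested. With the replicate block (correlation 0.00646) no count changed; in csn4null it was 14, 15 and 20 at the 3 ages. For 74 named changes, 1004 of 1045 values under other settings kept their direction and side of the threshold, 41 missed the threshold and 0 reversed. Of 6 further values of csn4null at 60 h fitted with 1 array enough, a setting chosen after seeing the data, 5 kept both and 1 missed the threshold. Fits of the compared arrays alone lost 18 of the 74 and scaling lost 4. Without the doubted arrays, without the dye term, with weights, centring or the block 0 of 74 were lost. The 74 were chosen in these data, most as the largest calls with 1 sign on all arrays, which favours such an outcome. Of all 195 P450 calls against wild type, 47 were lost without some single array of the mutant group. The csn5null calls of Cyp6d5 at 72 h and Cyp12c1 at 60 h, outside the 74, were lost without the doubted arrays. A direction of all ratios opposite to the one taken here would turn every sign. Signal over background is unknown, so which low ratios are limited by dim spots could not be assessed.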
